A study of Mus musculus with 18 samples.

Results

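Ddx58, Ifih1, Dhx58, Mavs, Zbp1, Eif2ak2 and Tlr7 encode sensors of foreign or misplaced RNA and of Z-form nucleic acids, with the adaptor that the cytosolic RNA sensors share. These 7 genes were picked by symbol, and all 7 were found both among the 14423 genes of the authors' deposited table for mouse bone marrow and among the 21830 genes of their table for spleen. Ddx58, the gene of RIG-I, stands under this older symbol of Rigi in both.

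Each table compares Cgas-/- with dKO cells of C57BL/6 mice, by QuantSeq 3' mRNA sequencing of RNA from cell suspensions. The bone marrow libraries came from untransplanted mice, 4 of Cgas-/- genotype and 4 of Trex1-/-;Sting1gt/gt genotype (called dKO). The spleen libraries came from dKO mice that had been lethally irradiated and given Cgas-/- marrow (5 libraries) or dKO marrow (5 libraries), and were taken 12 weeks later. The series title names the question, whether cGAMP passed between cells activates innate immunity when TREX1 is missing. Cgas-/- cells lack the DNA sensor cGAS, which makes cGAMP, and keep TREX1 and the cGAMP receptor STING. The dKO cells lack TREX1, a nuclease that clears cytosolic DNA, and are homozygous for goldenticket (gt), a Sting1 allele without working STING. No group was wild type, every group lacks a part of the cGAS and STING pathway, and each spleen held dKO host cells that outlast irradiation beside the donor's blood cells. The sources used here give no age for the mice. The spleen groups also differed in Y-linked genes, whose values are given with Tlr7 below.

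RIG-I and MDA5 (Ifih1) are cytosolic helicases that bind double-stranded RNA and signal through MAVS, an adaptor on the mitochondrial membrane, to the kinases that activate IRF3 and IRF7. LGP2 (Dhx58) has the helicase but no signalling domain and tunes the other two. ZBP1 binds nucleic acids in the left-handed Z form and can start necroptosis through RIPK3, PKR (Eif2ak2) stops translation by phosphorylating eIF2 alpha when it meets double-stranded RNA, and TLR7 reads single-stranded RNA in endosomes, in mice mainly in plasmacytoid dendritic cells, B cells and monocytes. Apart from Mavs, these are known as genes that interferon can induce, so their levels are often read together with the sensors of DNA.

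The question put to the tables was whether the RNA sensor genes differed where the DNA sensing pathway had been interrupted at different steps. In bone marrow, Zbp1 and the 3 helicase genes were lower in Cgas-/- cells, Zbp1 by 1.68-fold and the helicase genes by 1.28-fold to 1.31-fold. Eif2ak2 and Tlr7 differed there by less than their standard errors, and Mavs was the 1 gene that stood higher. In spleen, Zbp1 was instead 1.31-fold higher with Cgas-/- marrow, and the other 6 genes were within 1.16-fold of the dKO group in either direction. None of these differences passed the authors' test after adjustment over all genes.

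Each fold change sets the Cgas-/- genotype (in spleen, that of the donor marrow) over dKO, and its standard error follows the ± sign. A gene passed where the authors' deposited table lists a DESeq2 adjusted p under 0.05, which held for 0.534% of genes in bone marrow and for 0.133% in spleen. The count of sensor genes that passed was 0 of 7 in each tissue. At an unadjusted p under 0.05, 4 of 7 were lower and 0 higher in bone marrow, where 4.65% of all genes were lower and 4.19% higher by that rule. With a t distribution in place of the normal one the count was 2 of 7, Ddx58 and Zbp1. In spleen 1 of 7 was higher and 0 lower, beside 1.17% and 1.85% of all genes. Of the 21830 genes of spleen, 11118 had a mean of at least 20, so shares over all its genes take in many low counts. The tables hold no values per library, so the spread between libraries enters only through the standard errors, and the labels do not say that each library is a separate mouse. The p-values therefore reflect variation among these samples alone, and that variation may be technical. In the authors' deposited tables Cgas was lower (-1.13 in bone marrow and -0.92 in spleen on the log2 scale) and Trex1 higher (1.45 and 2.71) with the Cgas-/- genotype, as the labels have it. The sources used here do not say whether the 3' tags fall in the deleted parts, so this is a weak check. All 12 neutrophil and all 11 B cell markers looked for were measured in both tissues.

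**Figure D1:**
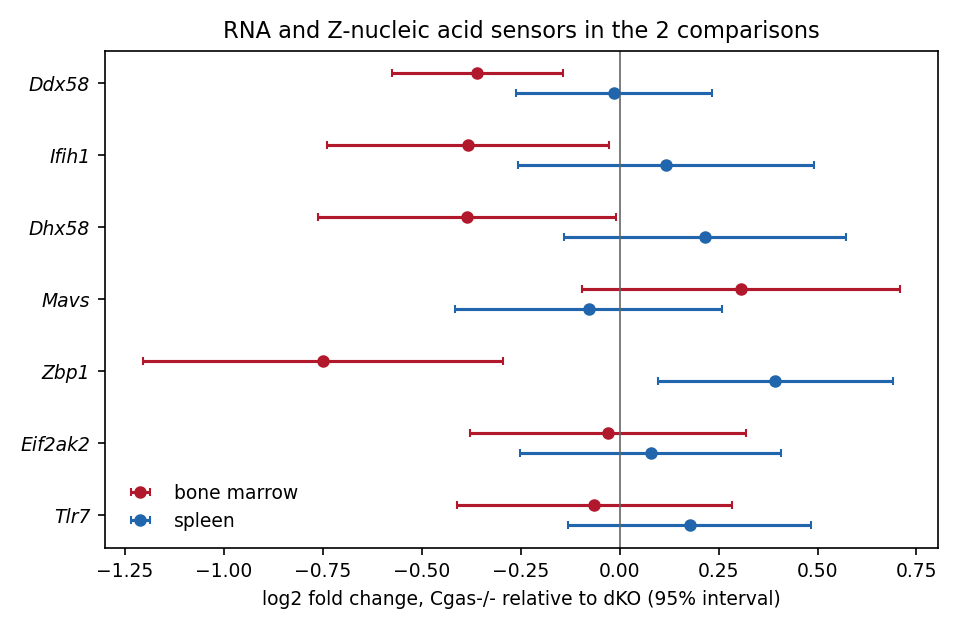
Log2 fold change of each of the 7 genes (horizontal axis, Cgas-/- relative to dKO) with its 95% interval, in bone marrow (red) and spleen (blue), from the authors' DESeq2 estimates. The bone marrow intervals of Ddx58, Ifih1, Dhx58 and Zbp1 lie below 0, and the spleen interval of Zbp1 lies above 0.

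All 7 genes were expressed at moderate levels in both tissues. A QuantSeq count does not scale with transcript length, so mean normalized counts can be set side by side within a table without dividing by length. In bone marrow the mean normalized count over all libraries ran from 77.9 for Zbp1 to 449 for Ddx58, with Mavs at 94.2, Dhx58 at 105, Ifih1 at 137, Tlr7 at 142 and Eif2ak2 at 215 between them. Ddx58 lay above 77.5% of the genes of that table and Zbp1 above 39.3%. In spleen Ddx58 was again highest at 391, and Ifih1 lowest at 66.8, with Eif2ak2 at 82.4, Dhx58 at 84.8, Mavs at 90.2, Zbp1 at 120 and Tlr7 at 131. Zbp1 was thus last in the order in bone marrow and the third in spleen. The spread of a level over libraries is not given in these tables, so neighbours in either order were not tested against each other, and the tables were normalized separately, so a level is not compared across tissues.

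**Figure D2:**
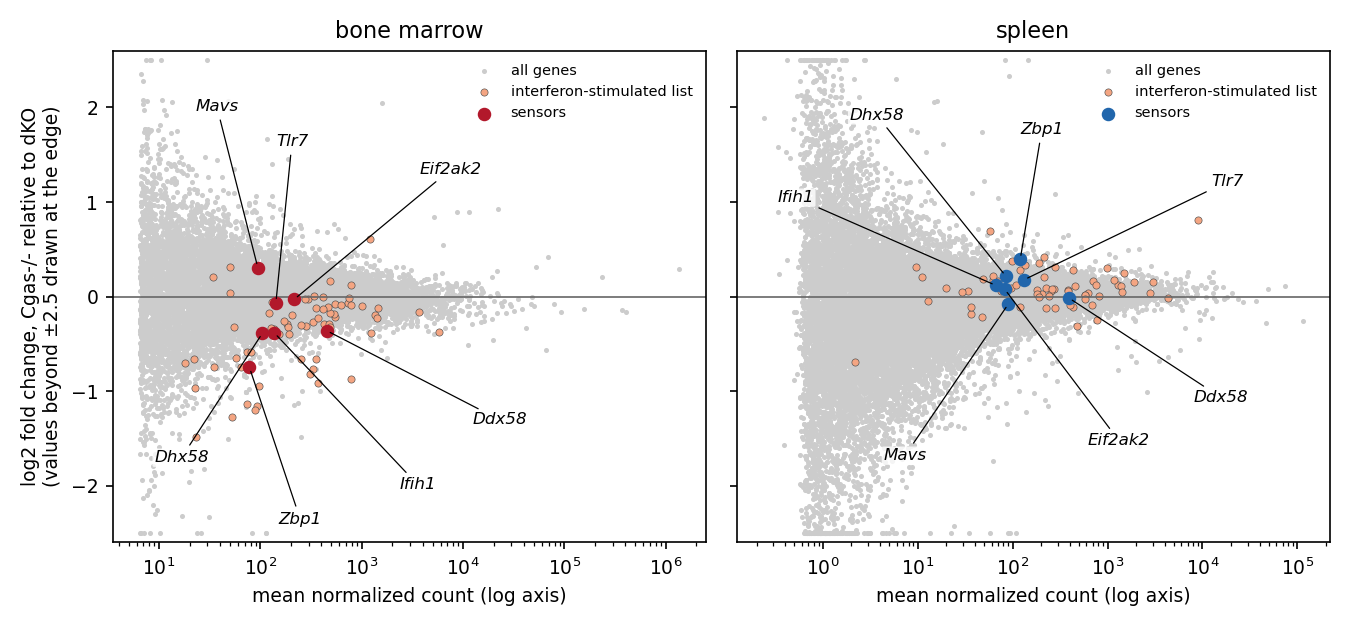
Log2 fold change (vertical axis) against mean normalized count (horizontal, log axis) for all genes (grey), the list of interferon-stimulated genes (orange) and the 7 sensor genes (coloured and named), in bone marrow on the left and spleen on the right. The sensor genes lie at mean counts from 77.9 to 449 in bone marrow and from 66.8 to 391 in spleen, where the scatter of all genes is narrower than at the low end.

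None of the 7 genes lies on chromosome 9, which carries Trex1 and Cgas. On GRCm38, the assembly of the mm10 build, Ifih1 (62595798 to 62646255, minus strand), Mavs (131234063 to 131248025, plus strand) and Zbp1 (173206612 to 173218923, minus strand) are on chromosome 2. Ddx58 is on chromosome 4 at 40203773 to 40239828, Dhx58 on chromosome 11 at 100694884 to 100704271, Eif2ak2 on chromosome 17 at 78852564 to 78882573 and Tlr7 on the X chromosome at 167304929 to 167330558, each on the minus strand and each protein coding in GENCODE M21. An antisense gene, Dhx58os, covers the 3' end of Dhx58. The sources used here do not give the counting strand, so tags of Dhx58 and of its antisense gene may not have been told apart.

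Interferon acts on such genes through the interferon-stimulated response element (ISRE), a pair of GAAA repeats bound by IRF proteins. RefSeq windows from 250 bases before to 50 bases after a gene's start (GRCm38.p6) matched 4 of the 7 genes, Ddx58, Ifih1, Eif2ak2 and Mavs. They were searched on both strands for GAAA, any 2 bases and GAAA in a row. Of these genes, 3 held a match and Mavs held none, which says only that these letters are not in that window. A match was present in 3.44% of all 32851 windows, which is 3.99% of the 27025 genes with a window, and in those of 23 of the 56 genes of the interferon-stimulated list that had a window. The sites are shown in 30 bases each, because they put the helicase genes Ddx58 and Ifih1, lower in marrow, beside Eif2ak2, which stood near 0. They read 5' to 3' on the gene's strand, with the match in capitals.
Ddx58, chr4:40239804-40239833, minus strand, match on the opposite strand: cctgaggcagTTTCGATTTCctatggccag
Ifih1, chr2:62646206-62646235, minus strand: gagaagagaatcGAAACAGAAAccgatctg
Eif2ak2, chr17:78882535-78882564, minus strand: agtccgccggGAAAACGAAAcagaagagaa
All 3 matches lie just after the annotated start, beginning at base 3 in Ddx58, base 19 in Eif2ak2 and base 33 in Ifih1, counted from 1 at the start. A second set of letters was also searched for, TTC, any 3 bases and GAA. It was found in 1 of the 4 genes, Eif2ak2, in 12 of the 56 interferon-stimulated genes and in 9.55% of all genes with a window. All of these are matches of letters in the reference genome and not measured binding.

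The helicase genes were lower by nearly the same amount in Cgas-/- marrow. Ddx58, with the highest count and the smallest standard error of the 7, had a mean normalized count of 394 in Cgas-/- and 505 in dKO marrow, as implied by its overall mean and fold change with equal numbers of libraries. Its log2 fold change in the authors' deposited table was -0.36 ± 0.110, a 1.28-fold difference, with a DESeq2 adjusted p of 0.119 (unadjusted p = 0.00114, 137th smallest in the table). Ifih1 had implied means of 119 and 155, and -0.38 ± 0.182 (authors' deposited table, with a DESeq2 adjusted p of 0.507). Dhx58, with implied means of 90.9 and 119, had -0.39 ± 0.192 (authors' deposited table, with a DESeq2 adjusted p of 0.539). The 3 estimates thus lie within 0.03 of each other on the log2 scale, and their 95% normal intervals all end below 0, at -0.14 for Ddx58, -0.03 for Ifih1 and -0.01 for Dhx58. By a t distribution the unadjusted p was 0.0174 for Ddx58, 0.0796 for Ifih1 and 0.0913 for Dhx58. Only between 4.28% and 5.04% of the genes with a mean of at least 20 had a lower fold change than these 3.

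In spleen the helicase genes did not stand apart. The authors' deposited table gave -0.01 ± 0.126 for Ddx58, 0.12 ± 0.191 for Ifih1 and 0.22 ± 0.181 for Dhx58, and the DESeq2 adjusted p rounded to 1 for each. Implied means for the spleens with Cgas-/- and with dKO marrow were 389 and 392 for Ddx58, 69.5 and 64.1 for Ifih1 and 91.1 and 78.4 for Dhx58. Their intervals, from -0.26 to 0.23 for Ddx58, from -0.26 to 0.49 for Ifih1 and from -0.14 to 0.57 for Dhx58, hold changes in either direction, and that of Ddx58 is the tightest.

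Mavs, whose product all signals of RIG-I and MDA5 pass through, went the other way from the helicase genes. It had implied means of 104 in Cgas-/- and 84.2 in dKO marrow, and in the authors' deposited table a log2 fold change of 0.31 ± 0.205, which did not pass (DESeq2 adjusted p = 0.753). In spleen it stood at -0.08 ± 0.172 (authors' deposited table, with a DESeq2 adjusted p of 1). Both intervals include 0.

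The other genes of the RIG-I-like receptor pathway were centred near 0. Of 24 measured (ubiquitin ligases such as Trim25 and Rnf135, TRAF adaptors, the kinases Tbk1 and Ikbke, Irf3 and Irf7), none passed the DESeq2 test in either tissue in the authors' deposited tables, and the medians were -0.02 in bone marrow and 0.06 in spleen, against -0.002 and -0.03 over all genes. Over the genes with a mean of at least 20, the medians were -0.003 and 0.006. At an unadjusted p under 0.05, 2 of the 24 were lower and 0 higher in bone marrow, and 0 in either direction in spleen. The shares over all genes were 4.65% and 4.19% in bone marrow and 1.85% and 1.17% in spleen, so these counts are near the background. The lowest in bone marrow was Irf7, the interferon-induced transcription factor that amplifies type I interferon, at -0.66 ± 0.192 (authors' deposited table, with a DESeq2 adjusted p of 0.0790). Cyld, a deubiquitinase that restrains RIG-I, was at -0.21 ± 0.0931 there (authors' deposited table, with a DESeq2 adjusted p of 0.443). In spleen the smallest p-values in the authors' deposited table were those of Zcchc3, a co-receptor of RIG-I and MDA5, at -0.43 ± 0.224, and Traf6 at 0.18 ± 0.123.

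Other RNA helicases and binders of double-stranded RNA were spread to either side of 0 in Cgas-/- marrow. Of 15 measured, 9 were above 0, where 49.5% of all genes were, the median was 0.06 and none passed the DESeq2 test of the authors' deposited table, while 4 were higher and 1 lower at an unadjusted p under 0.05 (4.19% and 4.65% of all genes). Dhx15, a splicing helicase that also senses RNA, was at 0.24 ± 0.0817 in the authors' deposited table. The 1 lower gene was Ddx60, itself induced by interferon, at -0.29 ± 0.126 in the authors' deposited table, named because its value had been seen. In spleen the median was -0.01, with none past the DESeq2 test and 1 lower at an unadjusted p under 0.05 in the authors' deposited table, and the 2 smallest p-values among genes with a mean of at least 20 were those of Dhx9 (0.16 ± 0.0882) and Ddx6 (0.13 ± 0.0868). By the unadjusted rule 1.85% of all genes were lower in spleen.

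Zbp1 was the sensor gene with the largest estimated difference in each tissue, with opposite signs. After shrinkage towards 0 with a normal prior its bone marrow value was -0.239, beside -0.242 for Ddx58, so its first place there was lost. In bone marrow its implied mean was 58.1 in Cgas-/- and 97.7 in dKO cells. The log2 fold change in the authors' deposited table was -0.75 ± 0.232 (DESeq2 adjusted p = 0.127, unadjusted p = 0.00125), with a 95% interval from -1.20 to -0.29, that is, a Cgas-/- level between 0.434 and 0.815 times that of dKO. Only 0.681% of genes with a mean of at least 20 had a lower value. In spleen its implied mean was 136 with Cgas-/- and 104 with dKO marrow, and the authors' deposited table gave 0.39 ± 0.151 (DESeq2 adjusted p = 1, unadjusted p = 0.00928), with an interval from 0.10 to 0.69. There it ranked above 98.7% of genes with a mean of at least 20. The spleen groups also differed in Y-linked genes, and the part of sex in this value was not tested.

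The genes of ZBP1's partners had values nearer 0, with wide intervals. Ripk3, the kinase it engages, was at -0.03 ± 0.220 in bone marrow and 0.07 ± 0.155 in spleen (authors' deposited tables), and Mlkl, the pore-forming effector of necroptosis, at 0.07 ± 0.246 and -0.08 ± 0.402. Adar, the editor whose interferon-induced form keeps self RNA from ZBP1 and MDA5, stood at -0.12 ± 0.115 and 0.04 ± 0.0947 in the authors' deposited tables. These genes are named for their roles and not by the naming rule. Of the 15 measured genes of ZBP1 signalling and necroptosis none passed the DESeq2 test in either of the authors' deposited tables, with medians of -0.03 and 0.04. At an unadjusted p under 0.05 only Birc2, an inhibitor of apoptosis, differed, at 0.36 ± 0.142 in bone marrow (authors' deposited table, with a DESeq2 adjusted p of 0.316), and none in spleen. By that rule 4.19% of all genes were higher and 4.65% lower in bone marrow. Casp1 had -0.22 ± 0.118 in bone marrow and 0.14 ± 0.101 in spleen, and Nlrp3 0.34 ± 0.221 in spleen (authors' deposited tables).

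Eif2ak2 differed between the genotypes by less than its standard error in each tissue. Implied means were 213 in Cgas-/- and 217 in dKO marrow, and 84.6 and 80.1 in spleen. The authors' deposited tables gave -0.03 ± 0.178 in bone marrow (DESeq2 adjusted p = 0.996) and 0.08 ± 0.168 in spleen (DESeq2 adjusted p = 1). The intervals ran from -0.38 to 0.32 and from -0.25 to 0.41. In bone marrow this is a Cgas-/- level between 0.769 and 1.25 times that of dKO, a range that holds the estimate of Ddx58. A processed pseudogene, Gm6548, lies within 1 kb of its 3' end on the same strand.

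Around PKR, genes of eIF2 and of the integrated stress response had medians near 0 in both tissues. Of 20 measured in bone marrow 10 were above 0 (median -0.004), and 2 were higher and 2 lower at an unadjusted p under 0.05, beside 4.19% and 4.65% of all genes. Eif2ak3, the PERK kinase of the endoplasmic reticulum, was at 0.46 ± 0.164 (DESeq2 adjusted p = 0.246) and Chac1, a target of ATF4, at -0.88 ± 0.352 (authors' deposited table, with a DESeq2 adjusted p of 0.341). In spleen 14 of 21 were above 0 (median 0.06), where 44.96% of all genes were, and 4 were higher at an unadjusted p under 0.05, where 1.17% of all genes were. The smallest p there was that of Ppp1r15a (GADD34), the phosphatase subunit that reverses eIF2 phosphorylation, at 0.58 ± 0.176 (authors' deposited table, with a DESeq2 adjusted p of 0.466), and its constitutive relative Ppp1r15b had 0.21 ± 0.0953. None of these genes passed the DESeq2 test of the authors' deposited tables.

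Tlr7 had estimates near 0 in bone marrow and slightly above it in spleen, with intervals that include 0. Implied means were 139 in Cgas-/- and 145 in dKO marrow, and 139 and 123 in spleen. The log2 fold change in the authors' deposited tables was -0.06 ± 0.177 in bone marrow (DESeq2 adjusted p = 0.982) and 0.18 ± 0.156 in spleen (DESeq2 adjusted p = 1), with intervals from -0.41 to 0.28 and from -0.13 to 0.48. Tlr7 is X-linked, and the spleen groups differed in sex-linked genes. The Y-linked genes Ddx3y (-4.76 ± 0.481) and Uty (-5.09 ± 0.633) were lower with Cgas-/- marrow and Xist was at 0.45 ± 0.126 in the authors' deposited table. Every spleen value here sets these same groups against each other, so sex and marrow genotype cannot be told apart there. In bone marrow Xist was at -0.10 ± 1.65 in the authors' deposited table, with a mean normalized count of 3563. That standard error compares with at most 0.232 for the 7 genes there. The part of sex in the values of Tlr7 and of the other genes was not tested in either tissue. Markers of plasmacytoid dendritic cells had a median of 0.02 in bone marrow and -0.11 in spleen (6 of 10 above 0, and 4 of 10), and B cell markers 0.04 and -0.01, with no gene of either list past the DESeq2 test of the authors' deposited tables. At an unadjusted p under 0.05, 3 of the 10 plasmacytoid dendritic cell markers were higher and 0 lower in bone marrow, where 4.19% and 4.65% of all genes were. Tcf4, the transcription factor that specifies plasmacytoid dendritic cells, came closest at 0.32 ± 0.0875 in bone marrow (DESeq2 adjusted p = 0.0534). It passed with filters at means of 20 and 50 and with centring. It did not with a t distribution, with Benjamini-Yekutieli adjustment or without genes near Trex1 or Cgas.

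Of the endosomal receptors and the genes that serve them, 7 of 27 measured were lower and 0 higher in Cgas-/- marrow at an unadjusted p under 0.05, where 4.65% of all genes were lower. None passed the DESeq2 test of the authors' deposited table, and the median was -0.08. Irak4, the kinase that MyD88 recruits first, was at -0.33 ± 0.0946 (authors' deposited table, with a DESeq2 adjusted p of 0.0790), with Irf7 beside it as given above. The chaperone Unc93b1, which carries TLR7 to the endosome, was at -0.08 ± 0.0765 and Myd88 at -0.15 ± 0.112 in the authors' deposited table, both named for their roles. In spleen the authors' deposited table gave no gene of this list an unadjusted p under 0.05, and Irf5, another transcription factor of the pathway, had 0.11 ± 0.0777.

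**Figure D3:**
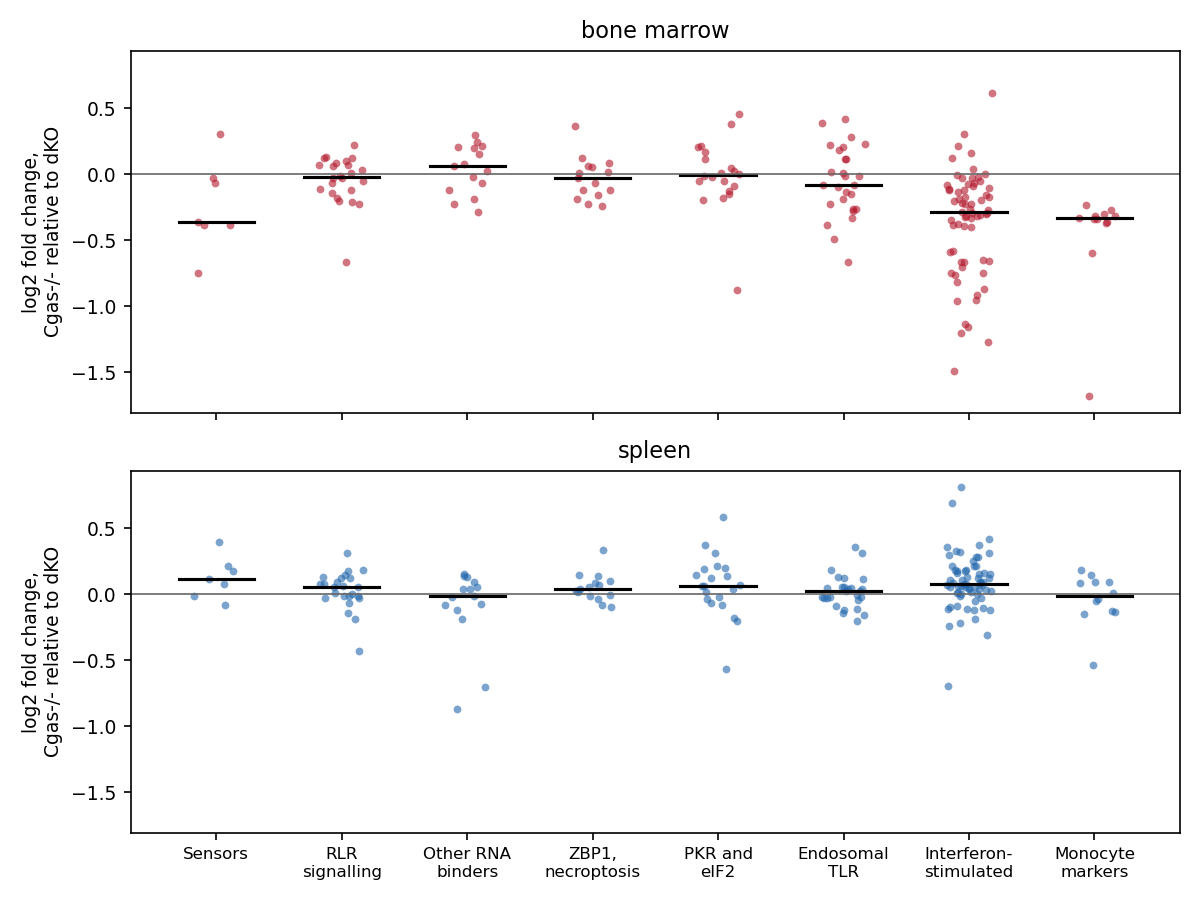
Log2 fold change (vertical axis, Cgas-/- relative to dKO) of each measured gene of 8 lists in bone marrow (top) and spleen (bottom). Points are genes, with sideways scatter only to separate them, and bars are medians. In bone marrow the sensor genes have a median of -0.36 and the interferon-stimulated genes one of -0.29, while the RIG-I-like receptor signalling list sits at -0.02.

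The sensor genes that were lower in marrow sat among interferon-stimulated genes. The list of such genes was written with earlier results of these data known. Of 66 such genes measured, none of them a sensor gene of the 7, 59 were below 0 in bone marrow, where 50.5% of all genes were, with a median of -0.29 beside -0.36 for the 7 sensor genes and -0.002 for all genes. By the DESeq2 test of the authors' deposited table, 9 of them fell (0.361% of all genes did) and 1, Shisa5, rose (0.173%). With a t distribution in place of the normal one no gene of the list passed in bone marrow, and with Benjamini-Yekutieli adjustment 4 passed as lower (Oas1a, Oas2, Oasl1 and Rtp4). Shisa5 lies on chromosome 9 within 10 Mb of Trex1 or Cgas and is also the 1 gene of the list past the test in spleen, where it rose, as 0.0550% of all genes did. Oas2, which makes the activator of RNase L when it binds double-stranded RNA, fell by 1.20 ± 0.253 and Rtp4 by 0.92 ± 0.195 on the log2 scale (authors' deposited table, with DESeq2 adjusted p of 0.00142 and 0.00177). The others that fell by this test were Oasl1, Oas1a, Oas3, Ifi27, Ifi27l2a, Ifitm3 and Slfn1. Zbp1 was lower than 55 of the 66 genes, Dhx58 than 44, Ifih1 than 43 and Ddx58 than 42. Eif2ak2 was lower than 10, Tlr7 than 12 and Mavs than 2. In spleen the median of the list was 0.08, with 50 of 66 above 0 beside 44.96% of all genes, and Zbp1 was above 63 of the 66.

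Monocyte markers were lower in the same marrow, with 12 of 12 measured below 0, a median of -0.34 and 4 that fell past the DESeq2 test of the authors' deposited table, among them Csf1r (-0.37 ± 0.0988) and Ly6c2 (-0.33 ± 0.0794). Their summed mean normalized count, as implied for each genotype, was 19482 in Cgas-/- and 24474 in dKO marrow. Over all genes of bone marrow, 50.5% were below 0 and 0.361% fell past the test. Erythroid markers stood higher there (11 of 11 above 0, median 0.64, implied sums 65767 and 36254), with Hbb-bt past the DESeq2 test at 0.84 ± 0.223 in the authors' deposited table, and lower in spleen (11 of 11 below 0, median -0.69, none past the test). Over all genes 49.5% were above 0 and 0.173% rose past the test in bone marrow, and 55.0% were below 0 in spleen. In spleen, monocyte markers had 6 of 12 below 0 and implied sums of 5764 with Cgas-/- and 5646 with dKO marrow. None of these monocyte and erythroid calls held with a t distribution or with Benjamini-Yekutieli adjustment. Neutrophil markers had medians of -0.12 in bone marrow and -0.27 in spleen, macrophage markers 0.06 and -0.18, and T and NK cell markers 0.01 and 0.04, with none past the test. Fewer cells of a type and less RNA per cell cannot be told apart in these suspensions, and the part of cell makeup in the sensor genes' values was not tested.

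Setting the tissues side by side, 5 of the 7 genes were below 0 in bone marrow and above 0 in spleen, against 23.9% of the 13851 genes listed for both tissues. Ddx58 was below 0 in both and Mavs had the reverse pattern. Of the 5, only Zbp1 had intervals off 0 in both tissues, and those of Eif2ak2 and Tlr7 include 0 in both. The value was higher in spleen for 6 of the 7, for 59 of 66 interferon-stimulated genes and for 12 of 12 monocyte markers. Over all genes 47.6% had the higher value in spleen. The median difference was 0.35 for the sensor genes, 0.32 for the interferon-stimulated list and 0.35 for the monocyte markers. The difference between the tissues was tested as the log2 fold change in spleen less that in bone marrow, over the standard error of this difference (z, two-sided normal p, Benjamini-Hochberg over all 13851 genes), and the comparisons share no library. The marrow came from untransplanted mice and the spleens from irradiated dKO mice given marrow, and the spleen groups differed in Y-linked genes. Tissue, transplantation and sex therefore cannot be told apart in this difference. By the z test 0.0578% of genes passed, and 0 of the 7. At an unadjusted p under 0.05, 3 of 7 had the higher value in spleen, where 2.23% of all genes did, and 0 the lower, as 2.59% did. With a t distribution 2 of 7 did, Ddx58 no longer being among them. For Zbp1 the difference was 1.14 ± 0.277 (95% interval from 0.60 to 1.69, unadjusted p = 3.73e-05), the 9th smallest p of all genes, with an adjusted p of 0.0574 by z over all genes. It passed when genes with a mean under 20 in either tissue were left out (adjusted p = 0.0417 by z), and over all alternatives its adjusted p ran from 0.0336 to 0.999. Dhx58 had 0.60 ± 0.264 and Ddx58 0.35 ± 0.168, with adjusted p of 0.969 and 0.987 by z. For Ifih1 it was 0.50 ± 0.263, for Tlr7 0.24 ± 0.236, for Eif2ak2 0.11 ± 0.245 and for Mavs -0.38 ± 0.267, with intervals that include 0.

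**Figure D4:**
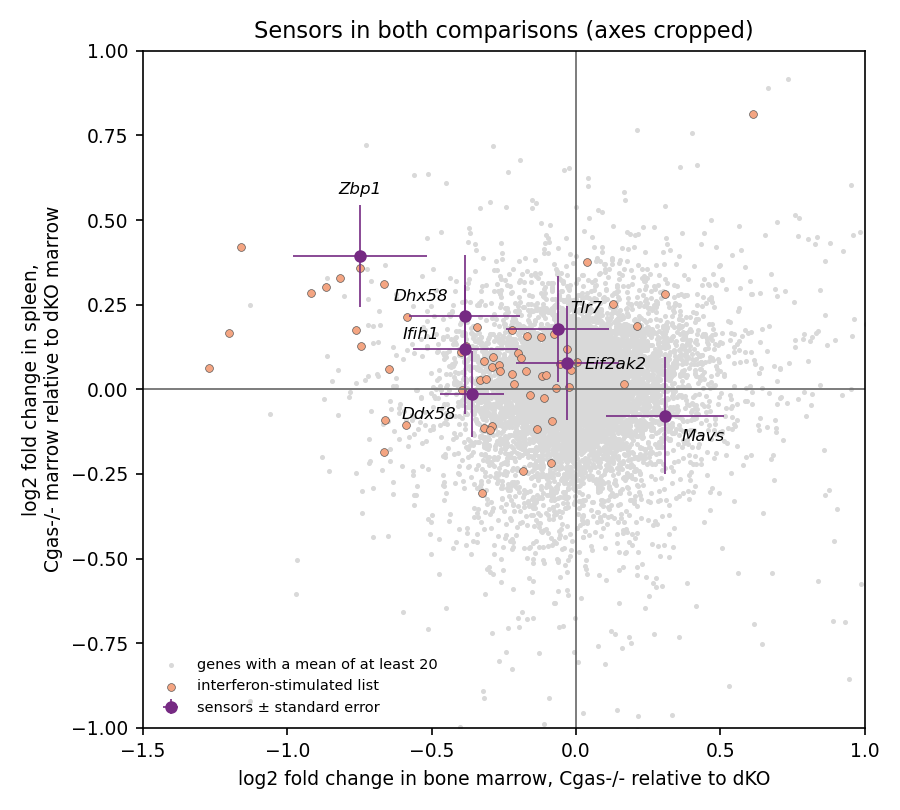
Log2 fold change in spleen (vertical axis) against that in bone marrow (horizontal axis) for genes whose mean normalized count is at least 20 in both tissues (grey), interferon-stimulated genes (orange) and the 7 sensor genes (purple, with standard errors). Axes are cropped and leave out some genes. Zbp1 lies at the upper left beside interferon-stimulated genes, Mavs alone lies at the lower right, and Eif2ak2 and Tlr7 lie near the centre.

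Likeness to other genes was measured by the distance between their pairs of log2 fold changes, over these 2 comparisons only, among 10055 genes with a mean of at least 20 in both tissues and outside the 7. The genes nearest to Zbp1 were Isg15, a ubiquitin-like protein that interferon induces (-0.75 in bone marrow and 0.36 in spleen, distance 0.037), and Grtp1 (-0.72 and 0.36, distance 0.046). Among the 20 nearest to Zbp1, 6 were in the interferon-stimulated list (Ifi27l2a, Irf7, Isg15, Oas3, Oasl2 and Rtp4), a list that makes up 0.597% of the candidates. These 20 reached out to a distance of 0.236, against at most 0.0533 for the other sensor genes, and within 0.1 of Zbp1 there were 5 genes, 2 of them on the list. For Ifih1 and Dhx58 the number was 2 of 20 each, for Tlr7 1, and for Ddx58, Mavs and Eif2ak2 0. The list was written with earlier results of these data known, so these counts are a description and not a test. The nearest pairs were Prr5l and Susd3 for Ifih1, Gtdc1 and Slfn1 for Dhx58, Ift46 and Gm12254 for Ddx58, Dennd5b and Mtrf1l for Mavs, Trrap and Slc25a10 for Eif2ak2, and 2300009A05Rik and Fkbpl for Tlr7. Their distances, all under 0.01, are far below the standard errors, and with 247 genes within 0.1 of Ddx58 and 1985 within 0.1 of Eif2ak2 such neighbours carry little information.

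The error sets what could have been called. The smallest absolute Wald statistic (log2 fold change over its standard error) among the called genes was 3.65 in bone marrow and 4.10 in spleen. At its own standard error, Zbp1 would have needed a difference of 0.85 on the log2 scale (1.8-fold) in bone marrow and Ddx58 one of 0.40 (1.32-fold). In spleen the 7 genes would have needed between 0.52 and 0.78. Smaller differences were not detectable at this precision after adjustment, and a gene that did not pass is not shown to be equal between groups.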

How the data were processed

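RNA of 8 bone marrow and 10 spleen libraries was measured by QuantSeq. Per the submitters' processing notes, the authors used STAR 2.6.1, bcl2fastq 1.8.4, Partek and DESeq2 with the mm10 build. The sources used here do not give the annotation, the counting strand or the authors' version of DESeq2. The mean normalized count is a signal that the authors averaged over a comparison's libraries, per the file headers. DESeq2 gave the authors each log2 fold change with its error, per the file headers. The Wald score and the p-value (normal, two-sided, Benjamini-Hochberg over the table) are used as deposited, and recomputing them gave the deposited values. Library depths are unknown, so counts were not tested. The smallest mean was 6.46 in bone marrow and 0.239 in spleen.

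Implied group means follow from the mean and the fold change, and are approximate. Intervals are 95% normal intervals. The 7 genes and all lists were chosen with earlier results of these data known. Named are the 7 genes, Cgas and Trex1, the 2 genes of each list with the smallest p per tissue (mean at least 20), any list gene past the test, and the 2 nearest genes to each, except that cell type lists are given mostly as counts. Some results that this rule would name are not reported here. Others are said to be named for their role or after their values were seen. Calculations used Python 3.11.15, pandas 2.3.3, numpy 2.4.6, scipy 1.17.1 and matplotlib 3.10.9. The test of the difference was tested on simulated data. Those were drawn from a normal distribution with the authors' standard errors, so they cannot show whether normal p-values suit so few libraries. Alternatives were a t distribution, filters at means of 20 and 50, centring, leaving out genes within 10 Mb of Trex1 or Cgas, Benjamini-Yekutieli adjustment and shrinkage.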

Additional observations from a re-analysis of the deposited data

How the results depend on the processing

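No paired analysis was possible because the tables hold no values per library, and for the same reason the replicate block and leaving out each library were not run. Of the 194 recomputed values, 184 kept their direction and their side of the adjusted threshold, moved by less than a standard error or, for counts, stayed within 1.5 times, and none reversed. Only centring could have reversed a fold change, since the other alternatives leave it as it is or shrink it towards 0. No sensor gene passed in the main setting, and a t distribution or Benjamini-Yekutieli adjustment can only raise its p-value. Most of these values were thus bound to stay, and their number is no measure of robustness. With filters the adjusted p of the Zbp1 difference between tissues (1.14 on the log2 scale) passed, at 0.0417 for means of at least 20 and 0.0336 for means of at least 50, fewer genes being tested. The count of sensor genes past that test was then 1, and its adjusted p ranged up to 0.999 over the alternatives. With a t distribution in place of the normal, 2 sensor genes in place of 4 had an unadjusted p under 0.05 in bone marrow, 2 in place of 3 did so in the difference between tissues, and 1 gene of the whole bone marrow table passed, as higher, in place of 77. With shrinkage the bone marrow values became -0.24 for Ddx58, -0.17 for Ifih1, -0.16 for Dhx58 and -0.24 for Zbp1, and the spleen value of Zbp1 became 0.12.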

Other observations

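Of the cytokine and interferon genes that these sensors can induce, 8 of the 18 looked for were measured in bone marrow and 11 in spleen, and by the authors' deposited tables none passed the DESeq2 test or reached an unadjusted p of 0.05 there. Those of bone marrow were Ccl3, Ccl4, Ccl5, Cxcl9, Cxcl10, Il1b, Il6 and Tnf, so no interferon gene of the list was measured there. In bone marrow 6 of 8 were below 0, where 50.5% of all genes were. Ccl3 was at -0.47 ± 0.288 and Tnf at 0.28 ± 0.154 in the authors' deposited table. In spleen 7 of 11 were below 0, where 55.0% of all genes were. Cxcl9, a chemokine induced by interferon gamma, was at -0.41 ± 0.234 there and Il1b at 0.22 ± 0.176 in the authors' deposited table.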
